A study of Mus musculus with 6 samples.

Results

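The histone genes of the mouse were taken as every row of the expression table whose symbol opens like a histone gene's (Hist followed by a cluster number and h, H1f, H2af, H3f, or the newer H1-, H3-, H2a, H2b, H2az, H3c and H4c forms). H2afx and 3 pseudogene names were left out. The rule found 78 rows among 28738 gene IDs. They were 58 core genes for H2A, H2B, H3 and H4 in the histone gene clusters, 9 linker (H1) genes, 10 genes for variant histones, and H3f3aos, an RNA transcribed antisense to H3f3a.

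The samples were pools of fully grown germinal vesicle (GV) oocytes, the egg precursors that still hold an intact nucleus, with about 150 oocytes in each pool. RNA was sequenced from 3 control pools and from 3 pools of the Uba3 conditional knockout (Uba3 cKO). UBA3 is the catalytic part of the NEDD8-activating enzyme; NEDD8 is a small protein that is attached to other proteins, and the series concerns NEDDylation and oocyte quality. All 6 pools carry the strain label C57/Bl6/N;129SvEv7. The controls are labelled only as control. The driver of the deletion, the alleles of the control animals and the age of the animals are not given in the sources used here. The labels do not say whether pools of a group came from separate animals, and every p-value below therefore reflects how much these pools vary, which may be technical variation.

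In a nucleosome, DNA wraps around an octamer of the core histones H2A, H2B, H3 and H4, and a linker histone binds where the DNA enters and leaves. Most core and linker genes are replication-dependent: they sit in clusters, and their mRNAs end just after a conserved stem-loop instead of a poly(A) tail. Variant genes such as H3f3a lie alone and give polyadenylated mRNA that is made outside S phase as well. A growing oocyte stores histone mRNA for the embryo, and its main linker histone is the oocyte form H1foo, which gives way to somatic H1 types after fertilization.

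The stem-loop marks which members give replication-dependent mRNA, so it was searched by name, as its 16-base form, on the transcribed strand of the annotated 3′ UTRs (GENCODE M21 transcripts, build GRCm38). It was found in 44 members: 39 of the 45 core genes that have an annotated 3′ UTR, 4 of 8 linker genes and 1 of 9 variant genes. The 45 include genes whose annotated 3′ UTR is too short to hold the stem-loop, with 1 base in Hist1h2af and 2 in Hist1h2ah. Among all 17818 genes of the table with an annotated 3′ UTR, 59 (0.331%) held it. It lay 21 to 58 bases after the stop codon and came in 8 forms. The most frequent was in 24 members, of the H1, H2A, H2B and H3 types; the second was in 7 members, all H4. The examples are abundant members of each type, with the stem-loop in capitals and 5 bases on each side.
Hist1h1d (linker H1): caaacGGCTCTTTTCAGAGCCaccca
Hist1h2ab (core H2A): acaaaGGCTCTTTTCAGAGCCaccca
Hist1h2bk (core H2B): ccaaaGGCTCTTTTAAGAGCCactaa
Hist1h3f (core H3): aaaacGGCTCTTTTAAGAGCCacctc
Hist1h4c (core H4): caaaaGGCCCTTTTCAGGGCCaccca
Hist1h4a (core H4): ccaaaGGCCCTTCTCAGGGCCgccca
The stem-loop was not found in the annotated 3′ UTR of H1f0, H1foo, H1fx, H2afz, H2afv, H2afy, H3f3a or H3f3b. Nor was it found for the core genes Hist1h2bc, Hist2h2be and Hist1h2bq, or in the 37 annotated bases of the core gene Hist2h3b. The testis-type pair Hist1h2aa and Hist1h2ba has no annotated 3′ UTR in this release. For 23 of the 44 members with the stem-loop, the transcript model runs 100 or more bases past it.

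Values were the authors' normalized expression on a log2 scale. A gene was kept where 3 or more of the 6 libraries had a linear value of at least 10, as was the case for 17450 genes. Of the 77 histone genes 70 were kept (54 core, 9 linker, 7 variant). The 7 others were the core genes Hist1h2aj, Hist1h2ao, Hist1h2bq and Hist1h4m and the variants H2al1m, H2bfm and H3f3c. Their control means lay between 0.17 and 3.13, and none was tested. The antisense RNA H3f3aos was low, with a mean of 3.65 in controls and 3.61 in the knockout. No read counts came with the values, and library depth is therefore unknown. Uba3, whose deletion defines the groups, read 11.37, 11.46 and 11.34 in controls and 10.03, 10.16 and 10.36 in the knockout. That was a 2.31-fold lower level (log2 difference -1.21, limma adjusted p = 2.07e-05; exact two-sided permutation p = 0.1, the smallest that 3 against 3 can give). All 12 listed oocyte genes were kept, with control means from 4.01 to 16.85. Of these, 1 was lower by limma, the egg coat gene Zp2 (difference -0.30), against 2.50% of all kept genes. That call ended without control replicate 3 (limma adjusted p = 0.0543).

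Few histone genes passed the test between knockout and control. With limma and Benjamini-Hochberg adjustment over all kept genes, 3 of the 70 kept histone genes passed an adjusted p of 0.05, while 8.14% of all kept genes did. The linker gene H1f0 and the core gene Hist1h2aa were lower in the knockout (2 of 70, against 2.50% of all genes). The variant gene H3f3a was higher (1 of 70, against 5.64%). All kept genes had a median log2 difference of -0.01. The median was -0.02 for core genes, -0.12 for linker genes and 0.01 for variant genes. The 3 knockout libraries lay wholly above or below the 3 control libraries in 4 of the 70 genes, 1 higher and 3 lower. Over all kept genes such separation was seen in 27.9%, with 15.1% higher and 12.8% lower. The median SD within groups was 0.31 for core genes and 0.10 over all kept genes. A difference in a core gene was therefore harder to detect, and these counts do not show that differences were absent.

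**Figure D1:**
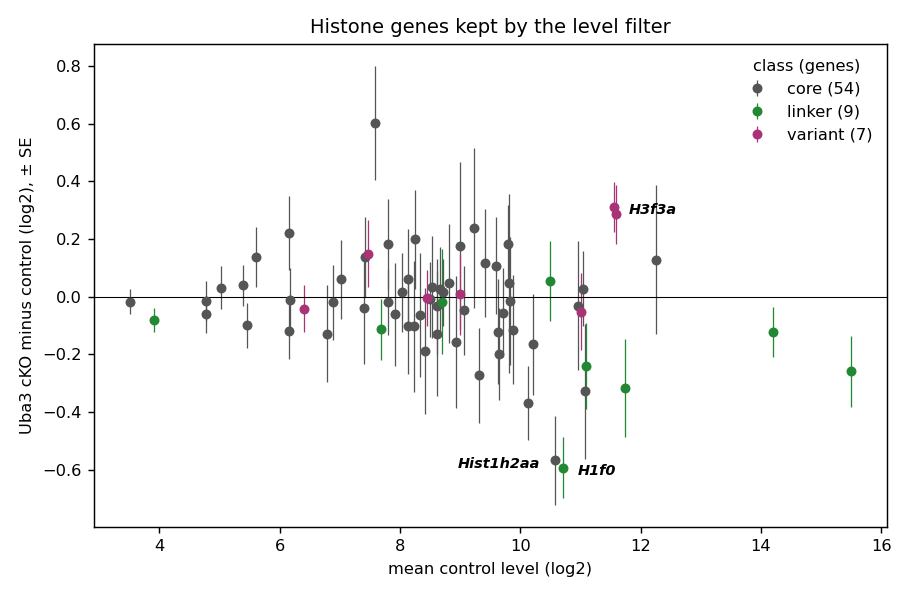
Difference between Uba3 cKO and control (log2, vertical axis, with its standard error from limma) against the mean control level (log2, horizontal axis) for the 70 kept histone genes, coloured by class. Most points lie within 0.2 of 0, and the 3 genes that passed the test are named.

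H1f0 encodes H1.0, a linker histone of a lone gene on chromosome 15 (ENSMUSG00000096210) whose mRNA is polyadenylated and which is known for accumulating in cells that have stopped dividing. Its log2 level was 10.54, 10.85 and 10.75 in controls and 10.20, 10.14 and 10.02 in the knockout. Every knockout library was below every control library. H1f0 fell by 0.59 (SE 0.11), 1.51-fold, from 10.71 ± 0.16 to 10.12 ± 0.09 (SD, n = 3 each; limma adjusted p = 0.00377). It passed the test without any single library, with adjusted p from 0.00115 to 0.0273 by limma. It did not pass with both control replicates 2 and 3 left out (limma adjusted p = 0.198), which leaves 1 control.

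H1foo, the oocyte linker histone on chromosome 6, read 15.15, 15.70 and 15.61 in controls and 15.42, 15.09 and 15.17 in the knockout. The groups overlapped, since control replicate 1 lay below knockout replicates 1 and 3. The difference was -0.26 (SE 0.12, limma adjusted p = 0.227). H1foo passed only where control replicate 1 was left out (difference -0.43, limma adjusted p = 0.00985). H1foo made up 56.5%, 62.7% and 66.5% of the summed linear values of the linker genes in controls and 64.6%, 58.5% and 58.1% in the knockout, and these shares overlapped too.

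Per kilobase of exon, H1foo ranged from 14.83 to 15.43 over the 6 libraries and Hist1h1a, a cluster H1 gene, from 14.39 to 14.74 (log2). These ranges did not overlap, and both lay above every other member. The next were the core genes Hist1h3f, from 11.11 to 12.70, and Hist1h2aa, from 11.23 to 12.33, whose ranges overlapped each other and those of several more core genes. On this scale the values of a pair of linker genes stood above those of each core gene. Reads of core genes may be split or lost in the counting. A median of 56.0% of the 50-base stretches in their transcripts also occur in other genes. The share was 0% for H1foo and for Hist1h1a. The labels do not say how mRNA was selected, and the part of counting and library preparation in this gap was not tested.

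The 6 linker genes of the chromosome 13 cluster encode the H1 subtypes that most dividing cells use, with Hist1h1t being the testis form. None of them passed the test. Hist1h1a read 14.18, 14.30 and 14.09 in controls and 14.06, 13.95 and 14.20 in the knockout (difference -0.12, limma adjusted p = 0.432). Hist1h1d, at 11.77, 12.17 and 11.30 in controls and 11.33, 11.66 and 11.30 in the knockout, had a difference of -0.32 (limma adjusted p = 0.291). Both overlapped between groups. Hist1h1c had a difference of -0.24 (limma adjusted p = 0.362), Hist1h1b of -0.02 (0.966) and Hist1h1e of 0.05 (0.859). Hist1h1t was close to the filter, at 3.92, 3.90 and 3.89 in controls and 3.89, 3.81 and 3.78 in the knockout. Its groups did not overlap by a small margin, and its difference was -0.08 (limma adjusted p = 0.273). H1fx, a linker gene outside the cluster, had a difference of -0.11 (limma adjusted p = 0.573). Differences were below 0 in 8 of the 9 linker genes and in 9032 of all 17450 kept genes. The listed oocyte genes leaned the same way, with 8 of 12 below 0. Their median was -0.11, against -0.12 for linker genes. The summed linear linker values were 0.3133% ± 0.0394 of all kept values in controls and 0.2675% ± 0.0126 in the knockout (SD, n = 3), with overlapping libraries.

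Some markers of theca and stroma, cells that lie around the follicle of an oocyte, were lower in the knockout, as H1f0 was. Of 16 listed theca and stroma markers, 15 were kept and 5 were lower in the knockout by limma (against 2.50% of all kept genes), among them Dcn and Col3a1 of connective tissue and Cyp11a1 of steroid synthesis. The calls of Dcn and Col3a1 held without any single library, and that of Cyp11a1 ended without control replicate 2 or 3 or knockout replicate 3 (limma adjusted p up to 0.103). The summed linear values of the list were 3954 to 6101 in controls and 2986 to 3610 in the knockout. Insl3 was below the filter in every library (1.39 to 1.44). No deposited value of any gene was exactly 0, so a value above 0 does not show that a marker was present. The other 10 kept markers did not pass. Of the 15 kept, 14 had a difference below 0 and 1, Fn1, a difference above 0 (0.16). The median was -0.47. Of 19 kept granulosa and cumulus markers 2 were higher (Fshr, Kitl; against 5.64% of all kept genes) and 2 lower (Inhba, Aldh1a1; against 2.50%), with summed values of 30124 to 38854 in controls and 26540 to 32389 in the knockout. Each of these 4 calls ended without at least 2 of the 6 libraries, left out in turn (limma adjusted p up to 0.111 for Kitl, 0.108 for Fshr, 0.089 for Inhba and 0.099 for Aldh1a1). Of 9 kept blood and immune markers 2 were lower (C1qb and Hbb-bs, against 2.50% of all kept genes), and both calls ended without single libraries. The blood and immune list summed to 606 to 721 in controls and 559 to 607 in the knockout. Of 7 kept endothelial markers 1 was lower (Tie1, against 2.50% of all kept genes), a call that held without any single library. Of these 7 markers, 5 had a difference above 0 and 2 below, with a median of 0.01. The endothelial list summed to 4011 to 4337 in controls and 4021 to 4755 in the knockout. In pools, fewer cells of a type and less RNA per cell cannot be told apart, and the part of such cells in the H1f0 difference was not tested.

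H3f3a and H3f3b both encode H3.3, the replication-independent form of H3, which is placed at active genes and, by the ATRX and DAXX proteins, at repeats and telomeres. H3f3a (ENSMUSG00000060743, chromosome 1) read 11.55, 11.54 and 11.60 in controls and 11.93, 11.80 and 11.89 in the knockout. The controls lay close together, and every knockout library was above them. H3f3a rose by 0.31 (SE 0.09), 1.24-fold, from 11.56 ± 0.03 to 11.87 ± 0.07 (SD, n = 3; limma adjusted p = 0.0415). The call ended when any 1 of the 6 libraries was left out (limma adjusted p from 0.0504 to 0.173), although the difference stayed between 0.28 and 0.35. It also ended with no filter (limma adjusted p = 0.0676), with median scaling (0.0565) and with a block for replicate number. The call was also absent with both control replicates 2 and 3 left out, which leaves 1 control. The labels do not state whether the counting used strand, so reads of H3f3a and its antisense RNA cannot be told apart.

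H3f3b (chromosome 11) read 11.76, 11.45 and 11.58 in controls and 11.97, 11.75 and 11.91 in the knockout. The difference of 0.28 (SE 0.10) was close to that of H3f3a, but the groups overlapped at control replicate 1 and it did not pass (limma adjusted p = 0.108). It passed without control replicate 1 (difference 0.37, limma adjusted p = 0.0349) and with sample weights (0.32, limma adjusted p = 0.0288).

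The other kept variants did not pass the test. H2afz, for H2A.Z, which marks promoters, read 10.98, 11.31 and 10.72 in controls and 10.87, 11.11 and 10.87 in the knockout (difference -0.05, limma adjusted p = 0.856). H2afv, for the second H2A.Z protein, had a difference of -0.01, and H2afj one of 0.15. H2afy and H2afy2, for the macroH2A proteins with their large extra domain, had differences of 0.01 and -0.04. H2afy was low in knockout replicate 1, at 8.62, against 9.23 and 9.17 in the other two. The summed linear values of the variants were 0.0404%, 0.0389% and 0.0380% of all kept values in controls and 0.0449%, 0.0451% and 0.0445% in the knockout. These shares did not overlap between groups. Without H3f3a and H3f3b the shares of the other 5 variants were 0.0132%, 0.0151% and 0.0119% in controls and 0.0120%, 0.0148% and 0.0128% in the knockout, which overlapped. The median difference of the variants was 0.01 and took the other sign with median scaling (0.00 after rounding) and with quantile normalization (-0.01).

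**Figure D2:**
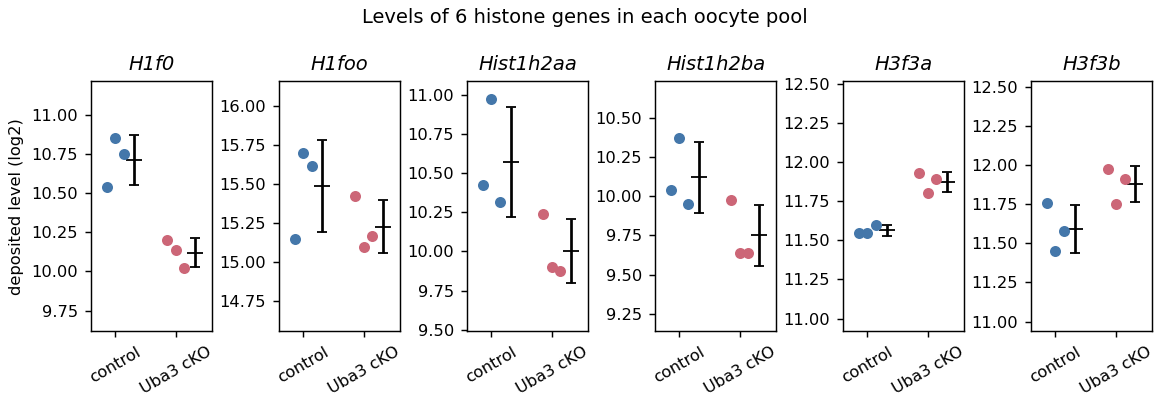
Level of 6 histone genes in each library (log2, vertical axis; each panel spans the same log2 range), control and Uba3 cKO side by side; points are libraries and the black bar is the mean ± SD of 3. H1f0 and Hist1h2aa are lower and H3f3a higher in the knockout without overlap, while the groups of H1foo, Hist1h2ba and H3f3b overlap.

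Hist1h2aa and Hist1h2ba encode TH2A and TH2B, a testis-type H2A and H2B that are also found in eggs and that lie head to head on chromosome 13. Hist1h2aa (ENSMUSG00000060081) read 10.43, 10.97 and 10.32 in controls and 10.24, 9.90 and 9.87 in the knockout. Control replicate 2 was the highest of the 6 libraries, and the groups did not overlap. Hist1h2aa fell by 0.57 (SE 0.15), 1.48-fold, from 10.57 ± 0.35 to 10.01 ± 0.21 (SD, n = 3; limma adjusted p = 0.0377). The call ended without control replicate 2 (difference -0.37, limma adjusted p = 0.128), without knockout replicate 2 (0.0903) and without knockout replicate 3 (0.146). It also ended with no intensity trend (0.0944) and with sample weights (difference -0.40, limma adjusted p = 0.0771). Hist1h2ba read 10.04, 10.37 and 9.95 in controls and 9.98, 9.64 and 9.64 in the knockout. Its difference of -0.37 (SE 0.13) did not pass (limma adjusted p = 0.101), and its groups overlapped at knockout replicate 1.

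The promoters of Hist1h2aa and H1f0 are shown because these genes passed the test as lower in the knockout. That of Hist1h1c is shown because it carries the H1 box typical of cluster H1 genes. Each is the 250 bases before the RefSeq start (GRCm38.p6), read along the gene's strand. Capitals mark matches on either strand to the TATA box (TATAAA), the CCAAT box, the H1 box (AAACACA), the cyclic AMP response element (TGACGTCA) and the GC box (GGGCGG). No matches overlapped in these windows.
Hist1h2aa chr13:23934187-23934436 (plus strand): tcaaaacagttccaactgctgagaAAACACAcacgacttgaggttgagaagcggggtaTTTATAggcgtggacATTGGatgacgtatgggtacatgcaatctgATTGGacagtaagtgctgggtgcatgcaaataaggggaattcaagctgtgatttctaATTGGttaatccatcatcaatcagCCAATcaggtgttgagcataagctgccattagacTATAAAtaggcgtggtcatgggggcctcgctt
H1f0 chr15:79027962-79028211 (plus strand): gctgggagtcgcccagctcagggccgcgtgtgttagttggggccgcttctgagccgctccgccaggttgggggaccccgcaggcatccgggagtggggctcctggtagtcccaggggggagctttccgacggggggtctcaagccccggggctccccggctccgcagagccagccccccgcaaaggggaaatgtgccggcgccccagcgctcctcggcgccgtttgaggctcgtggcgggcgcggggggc
Hist1h1c chr13:23738557-23738806 (plus strand): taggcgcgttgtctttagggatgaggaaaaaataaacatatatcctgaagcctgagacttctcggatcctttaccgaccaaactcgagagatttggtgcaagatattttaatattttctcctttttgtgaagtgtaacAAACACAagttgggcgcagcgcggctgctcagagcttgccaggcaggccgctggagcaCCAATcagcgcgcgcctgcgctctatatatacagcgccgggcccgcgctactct
The Hist1h2aa window shares 220 bases with that of Hist1h2ba, chr13:23934157-23934406 on the minus strand. It held 4 CCAAT matches, 2 TATAAA matches and AAACACA. The H1f0 window held none of the 5 motifs. Of the 9 linker genes, 5 held AAACACA, all cluster genes (Hist1h1b, Hist1h1c, Hist1h1d, Hist1h1e and Hist1h1t) with the match 112 to 122 bases before the start, against 7.2% of all 27025 promoters of that length. RefSeq promoters were matched to 71 members. Of these, 25 of 52 core genes held TATAAA (14.3% of the 27025 genes), 42 held CCAAT (37.5%), 4 held TGACGTCA (1.8%) and 14 held GGGCGG (35.4%). A match describes letters and no binding was measured.

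Among kept genes there were 8 pairs of an H2A and an H2B gene whose promoter windows overlap head to head. The differences had the same sign within 5 pairs and opposite signs within 3. In the pair Hist1h2bn and Hist1h2ak, which share 163 bases, the differences were 0.60 and -0.01. Hist1h2bn lay outside the rule for named genes and is given because its difference was the highest of all members, which was seen in the data. It read 8.15, 7.10 and 7.49 in controls and 8.22, 8.35 and 7.97 in the knockout, with overlap at control replicate 1 (limma adjusted p = 0.0807). Of its 50-base stretches, 86.4% also occur in transcripts of other genes, so its reads may be split or lost in the counting.

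Core genes as a group showed no common direction. Of the 54 kept, 23 had a difference above 0 and 31 below, and Hist1h2aa alone passed the test. The medians by type were -0.04 for 15 H2A genes, -0.05 for 16 H2B genes, 0.03 for 11 H3 genes and 0.02 for 12 H4 genes. The median of all core genes was 0.13 without control replicate 2 and -0.17 without control replicate 3, so its direction rested on single libraries.

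The named core genes, chosen as the 3 highest of each type, show the pattern. Hist1h3f, an H3 gene, read 12.27, 13.03 and 11.45 in controls and 12.47, 12.35 and 12.31 in the knockout. The controls lay far apart and enclosed all 3 knockout libraries. Its difference was 0.13 (SE 0.26, limma adjusted p = 0.817). Hist1h4a, an H4 gene, read 9.50, 10.81 and 9.14 in controls and 10.14, 10.02 and 9.43 in the knockout, again with the knockout inside the range of the controls. The H4 gene Hist1h4c read 11.14, 11.52 and 10.24 in controls and 11.05, 10.95 and 10.79 in the knockout (difference -0.03, limma adjusted p = 0.949). The H2B gene Hist1h2bc read 11.02, 11.34 and 10.75 in controls and 11.19, 10.95 and 11.06 in the knockout. Its SD within groups was 0.23, against a median of 0.31 for core genes. Hist1h3e (difference -0.33), Hist1h4n (-0.17), Hist2h2ac (-0.12), Hist1h2bk (-0.11), Hist1h2ab (-0.06) and Hist1h3a (0.18) did not pass either, with limma adjusted p of 0.438 to 0.870.

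The spread between pools of 1 group was wide in core genes. The median SD within groups was 0.31 for core, 0.24 for linker and 0.14 for variant genes, and 0.10 over all kept genes. Among kept genes within 0.5 of the same log2 level, the median core gene had a larger SD than 97.1%, the median linker gene than 93.0% and the median variant gene than 69.1%. H4 genes had the widest spread of the core types, with a median SD of 0.45. In 31 of 54 core genes the controls alone spanned all 3 knockout libraries, which held for 2382 of all 17450 kept genes.

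**Figure D3:**
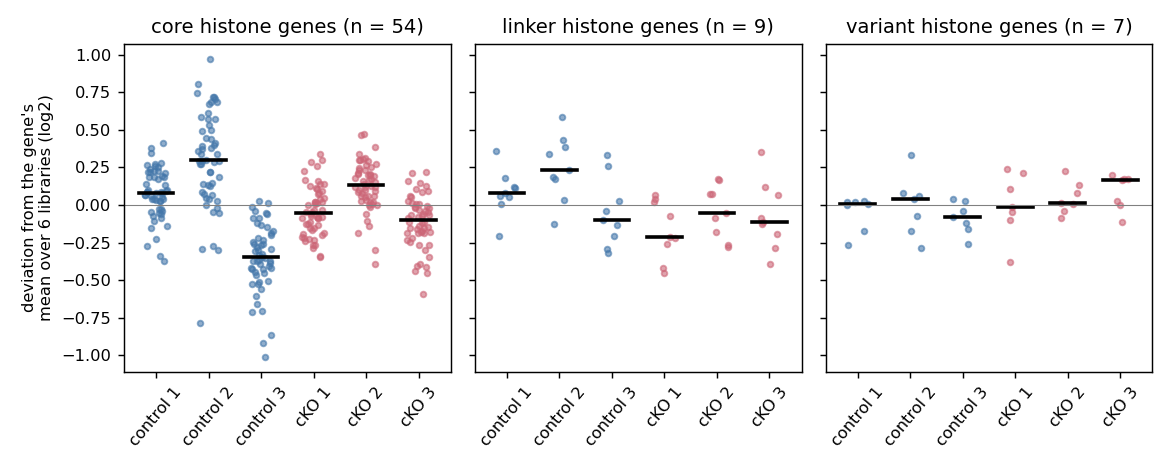
Deviation of each kept histone gene from its mean over the 6 libraries (log2, vertical axis), by library and class, with the median as a bar. Core genes are high in control replicate 2 (median 0.30) and low in control replicate 3 (median -0.35), and the medians of the knockout libraries lie between.

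The spread had an order that most core genes shared. Control replicate 2 was the highest of the 6 libraries in 35 of 54 core genes (3722 of all 17450 genes), and control replicate 3 the lowest in 38 (2540 of all genes). Control replicate 2 exceeded control replicate 3 in 51 of 54 core genes, by a median of 0.63. The median was 0.98 for H4 genes, 0.21 for linker genes, 0.01 for variants and 0.00 for all genes. Median deviations of core genes from their mean were 0.08, 0.30 and -0.35 in controls and -0.05, 0.13 and -0.10 in the knockout. The theca and stroma markers had a different order, at -0.05, 0.19 and 0.26 in controls and -0.16, -0.13 and -0.17 in the knockout. These 2 controls were compared after their values were seen, and no test was made of the order.

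The contrast between these controls was compared by the stem-loop. In the 41 kept members that hold it, control replicate 2 exceeded control replicate 3 by a median of 0.68 and was above it in 40. In the 12 kept members with 100 or more bases of annotated 3′ UTR and no stem-loop, the median was 0.09 and 9 were above 0. These groups differ in class as well: the first holds 37 core and 4 linker genes, the second 2 core, 3 linker and 7 variant genes. Within the linker genes alone the medians were 0.54 (4 genes) and 0.10 (3 genes), and the part of class in this contrast was not tested. Hist1h2bc and H2afz, without the stem-loop, both had a contrast of 0.59, within the range of the first group. The 17 members with a shorter or no annotated 3′ UTR had a median of 0.54, with 15 above 0. The median difference between knockout and control was -0.02 in the first group and -0.02 in the second. The labels name a TruSeq RNA library kit and do not say how mRNA was selected or ribosomal RNA removed; the part of library preparation in this order was not tested.

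**Figure D4:**
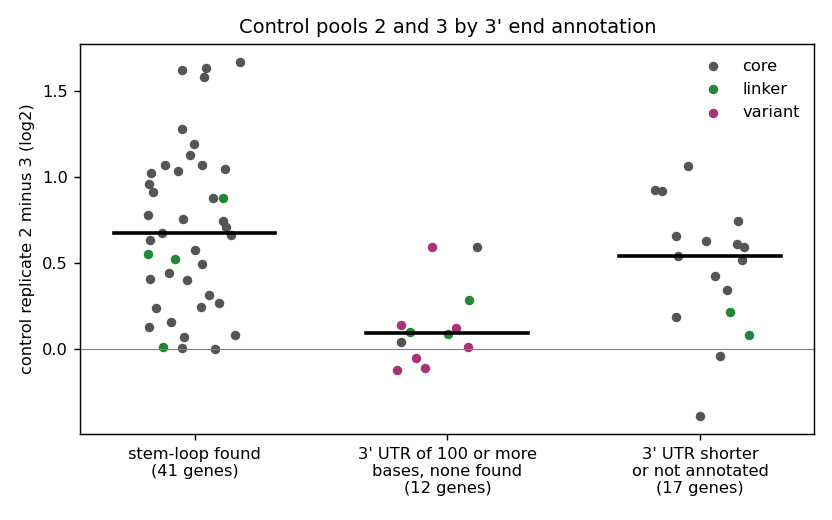
Control replicate 2 minus control replicate 3 (log2, vertical axis) for each kept histone gene, grouped by whether the stem-loop was found in its annotated 3′ UTR; bars are medians. The 41 genes with the stem-loop have a median of 0.68 and the 12 with a longer 3′ UTR and no stem-loop a median of 0.09.

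Many core genes are near copies of each other, which can split or drop their reads. Of the 50-base stretches in a gene's transcripts, a median of 56.0% also occur in other genes for core genes (range 0 to 100%), 2.3% for linker genes and 11.2% for variants. The share was 5.7% for H1f0, 23.8% for Hist1h2aa, 27.1% for H3f3a and 0% for H1foo. The 27 core genes with less than 50% shared stretches had a median difference of 0.03 and a median of 0.68 between control replicates 2 and 3. Values of a single core gene with a higher share are uncertain.

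Genes for proteins that cut, bind or turn over histone mRNA are given from a listed set. The set also holds Pabpn1l, for a protein that binds poly(A), which mRNA ending at the stem-loop lacks. Of 29 kept genes 2 were higher and 1 lower by limma, against 5.64% and 2.50% of all kept genes, with a median difference of 0.03. These 3 of 29 are near the share of all genes. Eri1, a nuclease that binds the stem-loop and trims histone mRNA, read 10.09, 10.08 and 9.97 in controls and 10.56, 10.48 and 10.72 in the knockout. It rose by 0.54 (SE 0.10, limma adjusted p = 0.00462), without overlap. Cpsf2, a subunit of the complex that cuts histone pre-mRNA, rose by 0.52 (limma adjusted p = 0.00325). Both passed without any single library. Pabpn1l, an embryonic poly(A)-binding protein, fell by 0.44 (limma adjusted p = 0.0258), a call that ended without control replicate 2 or 3 or knockout replicate 2 or 3 (limma adjusted p up to 0.111).

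Of 22 kept genes for factors of histone gene transcription 3 were higher (5.64% of all kept genes were) and 1 lower (2.50%), with a median of 0.04. Ccne2, a cyclin E that drives histone transcription at S phase, rose by 0.50 (limma adjusted p = 0.00619). Nfyc, a subunit of the factor that binds CCAAT, rose by 0.57 (limma adjusted p = 0.00605). Hinfp, the zinc finger activator of H4 genes, read 10.44, 10.33 and 10.50 in controls and 9.78, 9.81 and 10.05 in the knockout, and fell by 0.55 (limma adjusted p = 0.00574). The groups did not overlap for Hinfp. None of the 12 kept H4 genes passed the test, but their spread was the widest of the core types (median SD 0.45). An effect of Hinfp on H4 genes was not tested. The calls of Ccne2, Nfyc and Hinfp held without any single library. Yy1, a zinc finger factor, rose by 0.37 (limma adjusted p = 0.0391), which ended without any library but control replicate 1 (up to 0.151).

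Of 49 kept genes for histone chaperones and exchange factors 3 were higher and 2 lower, which is near the 5.64% and 2.50% of all kept genes, with a median of 0.00. Atrx, the remodeller that places H3.3 with DAXX, read 14.41, 14.27 and 14.27 in controls and 13.72, 13.84 and 13.55 in the knockout. It fell by 0.61 (SE 0.09, limma adjusted p = 0.000856), without overlap and in each fit without a library (limma adjusted p from 0.000457 to 0.0074). Daxx, the H3.3 chaperone, rose by 0.37 (limma adjusted p = 0.0416), a call that ended without any 1 library (0.0556 to 0.155). Dnajc9, an H3-H4 chaperone, fell by 0.43 (limma adjusted p = 0.0217) and Hjurp, the chaperone of the centromeric variant CENP-A, rose by 0.29 (limma adjusted p = 0.0364). Dnajc9 lost its call in 5 of the 6 fits without a library, all but that without control replicate 1 (up to 0.105). Hjurp lost its call without control replicates 1 or 3 or knockout replicates 1 or 3 (up to 0.166). Supt6, an elongation factor that handles histones, was the third that was higher, and is named to complete the count; it lost its call in 5 of 6 such fits. Cenpa itself, a histone gene that the name rule misses, had a mean of 8.09 in both groups (limma adjusted p = 0.991).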

How the data were processed

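RNA of 6 oocyte pools (3 control, 3 Uba3 cKO) was sequenced. Per the submitters' processing notes, DESeq2, featureCounts, STAR and fastp were used with build GRCm39; versions, roles and settings are not given there. The deposited table holds the authors' normalized values of 28738 gene IDs on a log2 scale (0.0363 to 18.01, none exactly 0); no source used here names the transform, and low values are compressed. No counts came with it, so depth is unknown and no count model was run.

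Symbols came from GENCODE M21 (GRCm38) by gene ID, for 27660 IDs. Of 105 reference genes that meet the name rule, 78 had a row and 27 did not. Because the builds differ, only names, chromosomes, transcript sequences and RefSeq promoter windows were taken from the reference.

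Genes whose linear value, with the deposited log2 undone, reached 10 in at least 3 libraries were kept (17450). Groups were compared with limma 3.58.1 (R 4.3.3; lmFit, eBayes with an intensity trend), with Benjamini-Hochberg adjustment over all kept genes and calls at an adjusted p under 0.05. The script was tested on simulated data. Tables were made with Python 3.11.15 and pandas 2.3.3. Named genes were Uba3, every called member, every kept linker and variant gene, the 3 core genes of each type with the highest means, core genes whose groups did not overlap, and up to 4 called genes of each related list. The members and lists were chosen with earlier results of these data known, so no set test or p over a list was made. Alternatives covered the filter, pseudocounts of 1 and 5, median scaling, quantile normalization, no trend, sample weights, a replicate block, a looser threshold, and leaving out each library. Leaving out control replicates 2 and 3 together was added after seeing the data.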

Additional observations from a re-analysis of the deposited data

How the results depend on the processing

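Calls among histone genes rested on few libraries. The 3 called members became 1 to 7 when 1 library was left out: 1 (H1f0) without control replicate 2, without knockout replicate 2 or without knockout replicate 3, and 7 without control replicate 1. Without both control replicates 2 and 3, limma called 0 members, with 6 at an unadjusted p under 0.05; the lone control is then assumed to vary like the knockout. Other settings called 2 to 4. The median core difference ranged from -0.17 to 0.13 over fits without 1 library, that of linker genes from -0.20 to -0.08 and that of variants from -0.0099 to 0.13 (0.10 without control replicate 2, 0.13 without knockout replicate 1). The core median was 0.06 with sample weights. Over 28 named members and 475 alternative values, 17 lost and 3 gained the call; of the rest, 453 kept their side of the threshold with no turn of a called direction and 2 kept it but changed sign and moved by more than the SD within groups (H1foo to 0.08 and Hist1h3a to -0.17, both without both control replicates 2 and 3). In all, 37 uncalled values changed sign. Replicate numbers did not pair the libraries: deviations of same-numbered libraries correlated at -0.085, -0.198 and -0.054, and 0 of 3 numbers correlated best with each other. A fit with the replicate block called 3 members (H1f0, Hist1h2aa and Hist1h2bn). Calls over all genes were 1421, against 2298 with sample weights, 1258 with the block, 618 to 1637 without 1 library and 227 without both controls. Depth is unknown, and low values are compressed, so differences of low genes such as Hist1h1t may be understated.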
